A study of Mus musculus with 14 samples.

Results

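Basal mammary cells that carry Thy-1 on their surface were compared with the myoepithelial population of the same gland. The 2 groups were 3 arrays of Thy-1+CD24medCD49fhigh cells and 3 arrays of CD24medCD49fmed cells, 6 of the 14 arrays of the series, and they were chosen by their sample titles. The second population is called CD24lowCD49fmed in the study's text and is written here as CD49fmed, and the first as Thy-1+. All cells came from untreated virgin C57BL6/J females, labelled 6 to 8 weeks old, with no transgene in either group. Cells were stained with lineage antibodies (CD45 for blood, Ter119 for red cells and CD31 for endothelium, and in the study's methods also CD140α, a fibroblast marker) and sorted 2 times on CD24, CD49f and, for the first group, Thy-1. The CD49fmed gate was not selected on Thy-1. RNA was amplified by 2 labelling cycles and hybridized to Affymetrix mouse genome arrays. Nothing in the labels tells separate animals from pools or repeats of 1 pool. The p-values below thus rest on the spread between these arrays, which may be technical. In the paired fit that spread is pooled over all rows, so a gene's p-value does not reflect its own spread. Values are on a log2 scale on which 0 is the mean of a gene over the 14 arrays, so they compare arrays within a gene and not genes with each other.

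The mammary duct has an inner layer of luminal cells and an outer basal layer. Myoepithelial cells of the basal layer contract under oxytocin to expel milk and lay down basement membrane, and the basal layer also holds cells that can regrow a gland after transplantation. Thy-1 is a small glycoprotein anchored in the outer membrane leaflet, known from T cells, neurons and fibroblasts as well as from some basal mammary cells. CD49f marks cells attached to basement membrane.

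The label of the Thy-1+ arrays was checked on Thy1, the gene of the sorted antigen. Thy1 was 2.00, -0.07 and 3.03 in Thy-1+ replicates 1 to 3 and 0.73, -0.46 and 0.12 in the CD49fmed replicates. Replicates 1 and 3 lay above every CD49fmed array, while Thy-1+ replicate 2 lay inside their range. The Thy1 difference of 1.52 (SE 0.55, n = 3 pairs) did not pass the paired limma threshold (adjusted p = 0.153). The study's flow cytometry found Thy-1 on part of the myoepithelial cells too, so the CD49fmed arrays are not a Thy-1 negative reference. In the arrays of cells sorted as Thy-1-CD24medCD49fhigh the Thy1 mean was -0.41 (SD 0.34). The basal genes Krt14 and Trp63 were above the mean of the 14 arrays, apart from Trp63 in Thy-1+ replicate 1. Krt14, a basal keratin gene, was 0.35, 1.74 and 1.94 in the Thy-1+ arrays and 1.72, 1.49 and 1.79 in the CD49fmed arrays. Trp63, the transcription factor of basal epithelium, was -0.53, 2.00 and 1.58 in the Thy-1+ arrays and 1.61, 2.03 and 1.77 in the CD49fmed arrays. Thy-1+ replicate 1 was the lowest of the 6 arrays for both genes. Krt14 and Trp63 were named for their role and lie outside the rule for named genes. The median of 24 basal epithelial genes was 0.57, 1.46 and 0.42 in the Thy-1+ arrays and 1.36, 1.63 and 1.75 in the CD49fmed arrays.

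Cdh19, which encodes a cadherin of peripheral glia, showed the largest rise among the genes called in Thy-1+ cells. Cdh19 was 4.10, 0.53 and 3.96 in Thy-1+ replicates 1 to 3 and -0.90, -0.58 and -0.31 in the CD49fmed replicates. Every Thy-1+ array lay above every CD49fmed array, and replicate 2 stood far below the other Thy-1+ arrays. The difference was 3.46 (11.0-fold, SE 0.55, paired limma adjusted p = 1.69e-06). Its own pair differences had an SD of 2.07, which that SE, shared by all rows, does not reflect. Abca8a, which encodes a lipid transporter of the ABC family, was 3.81, 1.37 and 4.49 in the Thy-1+ arrays and -0.51, 0.11 and 0.33 in the CD49fmed arrays. Its groups also did not overlap, and the difference was 3.25 (9.51-fold, SE 0.55, paired limma adjusted p = 9.46e-06).

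Nptx1, a secreted pentraxin gene of neurons, fell in Thy-1+ cells and had the widest gap between the groups of any row tested. Nptx1 was -0.96, 0.03 and -0.91 in the Thy-1+ arrays and 1.26, 1.73 and 1.72 in the CD49fmed arrays. The lowest CD49fmed array was thus 1.23 above the highest Thy-1+ array. Its group means were -0.61 (SD 0.56, n = 3) and 1.57 (SD 0.27, n = 3), with a difference of -2.18 (4.53-fold, SE 0.55, paired limma adjusted p = 0.0213). Slpi, which encodes a secreted inhibitor of leukocyte proteases, was -0.06, 0.24 and -0.10 in the Thy-1+ arrays and 1.88, 1.17 and 2.44 in the CD49fmed arrays. The Slpi groups did not overlap, with replicate 2 the closest pair, but the difference of -1.80 (3.49-fold, SE 0.55) did not pass the threshold (paired limma adjusted p = 0.0784). These 4 genes are markers chosen with earlier results of these arrays known.

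**Figure D1:**
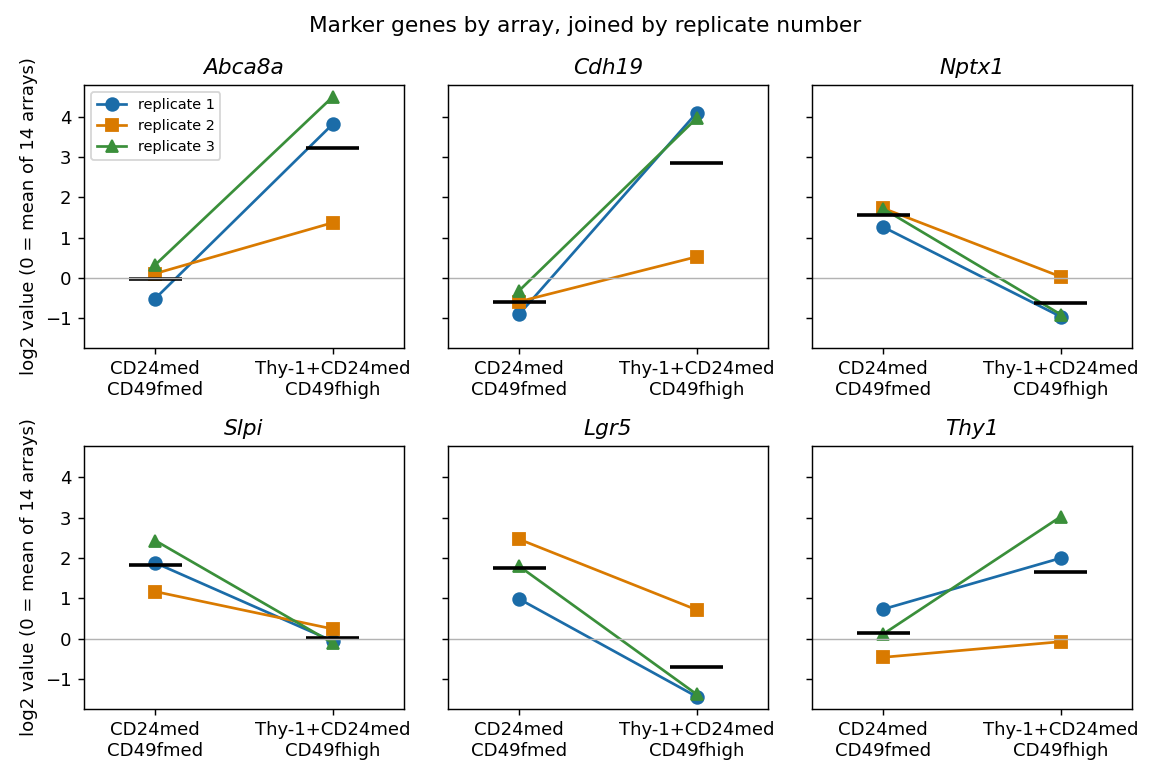
Log2 values (0 is the mean of 14 arrays) of Abca8a, Cdh19, Nptx1, Slpi, Lgr5 and Thy1 in the 3 CD49fmed and 3 Thy-1+ arrays, joined by replicate number, with bars at group means (n = 3). Groups do not overlap for the first 5 genes, and replicate 2 has the smallest step for Cdh19, where its pair difference is 1.11 against 4.99 and 4.28.

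Of 7190 rows tested, which are named genes or single probe sets, 15 were higher and 40 lower in Thy-1+ cells in the paired limma fit at an adjusted p under 0.05. These are 0.209% and 0.556% of the rows, 0.765% in all. Without pairing, limma called 0 (383 at an unadjusted p under 0.05, against 1226 with pairing), and 147 rows passed an unadjusted p under 0.01 by rank products, 1 of them in both directions, which included all 55. In the paired fit limma gave every gene the same SE of 0.55, so that a call rested on the size of the mean difference alone, and the smallest difference called was 1.95. Scaling changed the split: with each array centred on its median 0 rows were called higher and 0 lower, and with quantile normalization 6 and 1. An exact permutation test of 3 against 3 arrays cannot go below p = 0.1, and one of 3 pairs not below 0.25.

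The calls rested on Thy-1+ replicates 1 and 3. The median difference over all rows was -0.71 in pair 1, -0.10 in pair 2 and -0.60 in pair 3, and its SD over rows was 1.34, 0.35 and 1.10. Pair 1 had 984 rows over 1 log2 higher and 2923 over 1 log2 lower, while pair 2 had 24 and 102. Over the 7190 rows Thy-1+ replicate 2 correlated at 0.853 with CD49fmed replicate 2, at 0.000 with Thy-1+ replicate 1 and at -0.186 with Thy-1+ replicate 3, as a description over rows that share a normalization and a centring. The differences of pairs 1 and 3 correlated at 0.406. Among the 40 rows called lower, replicate 2 lay within the CD49fmed range in 23, and among the 15 called higher in 5. When Thy-1+ replicate 2 was left out of the unpaired fit, 856 rows were called, 82 higher and 774 lower, with 54 of the 55 among them. Replicate 1 was the lowest of all 14 arrays in 35.13% of rows, replicate 3 in 18.51% and replicate 2 in 1.74%. What sets replicates 1 and 3 apart from replicate 2 was not tested.

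**Figure D2:**
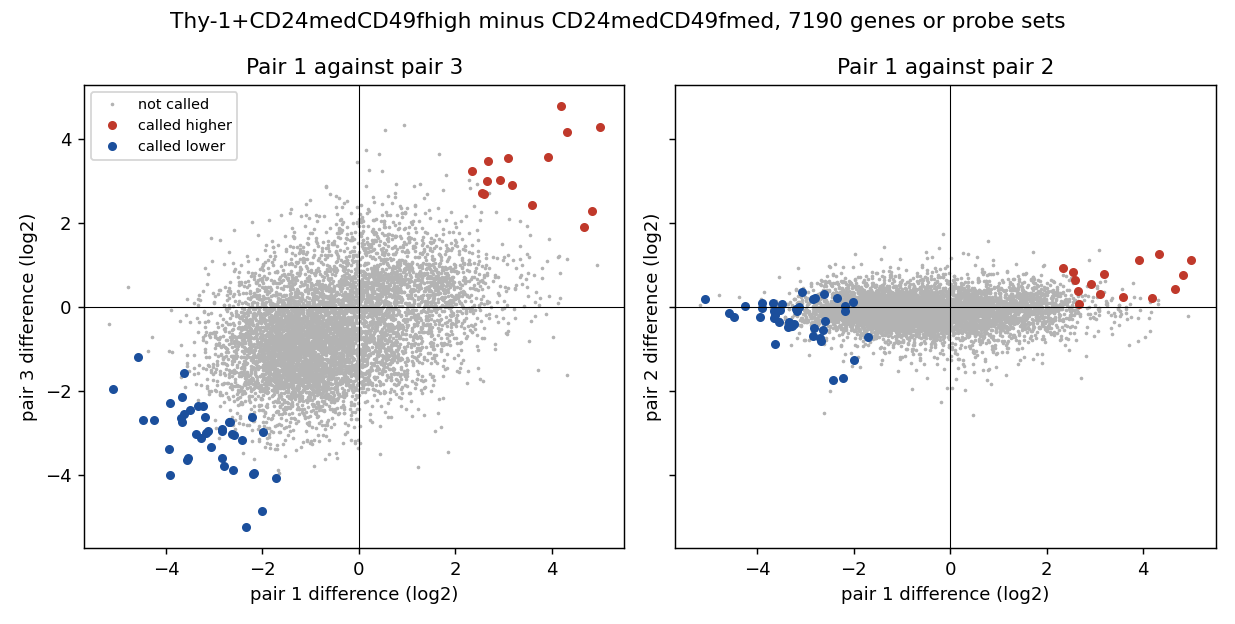
Log2 differences of Thy-1+ minus CD49fmed in pair 1 against those in pair 3 (left) and pair 2 (right), each point a gene or probe set (7190), red called higher and blue called lower in the paired limma fit. Called rows lie far from 0 in pairs 1 and 3, and pair 2 spans 0.07 to 1.26 for those called higher and -1.75 to 0.36 for those called lower.

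Of the 15 rows called higher, 9 had 1 gene symbol, and genes linked to axon-ensheathing cells stood beside transcription factor and receptor genes. Cadm4, an adhesion molecule by which Schwann cells hold axons, was 1.86, -0.25 and 2.42 in the Thy-1+ arrays and -1.06, -0.79 and -0.60 in the CD49fmed arrays. Kcna1, a voltage-gated potassium channel gene of myelinated axons, was 2.65, 0.53 and 3.25 against -0.01, 0.16 and 0.26. Kcna2, which encodes its partner subunit, was 2.39, 0.41 and 2.84 against -0.20, -0.23 and 0.16. None of these 3 genes overlapped between groups, and the differences were 2.16, 2.01 and 1.97 (paired limma adjusted p = 0.0214, 0.0352 and 0.0424).

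Nr2f1, a nuclear receptor of neural and mesenchymal development, was 3.78, 0.54 and 2.92 in the Thy-1+ arrays and -0.13, -0.57 and -0.65 in the CD49fmed arrays. S1pr3, a receptor gene for the lipid mediator sphingosine 1-phosphate, was 3.58, 0.92 and 2.96 against 0.40, 0.14 and 0.06. Neither gene overlapped between groups, with differences of 2.86 and 2.29 (paired limma adjusted p = 0.000278 and 0.0104). Zeb2, a repressor of E-cadherin known from epithelial-mesenchymal transition, was 4.04, 0.26 and 2.03 against 0.45, 0.02 and -0.39. Gatm, the enzyme of the first step of creatine synthesis, was 3.30, -0.00 and 3.62 against 0.20, -0.30 and 0.07. In both of these replicate 2 lay within the CD49fmed range, although the means differed by 2.08 and 2.31 (paired limma adjusted p = 0.0277 and 0.0104). Thy-1+ replicates 1 and 3 were the 2 highest of all 14 arrays in 14 of the 15 rows called higher, which the same contrast chose, and in 361 of all 7190 rows.

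Lgr5, the R-spondin receptor gene known from epithelial stem cells, was among the largest falls. Lgr5 was -1.44, 0.72 and -1.38 in the Thy-1+ arrays and 0.98, 2.47 and 1.80 in the CD49fmed arrays. The groups did not overlap, and each pair differed by more than 1 log2 (mean -2.45, 5.46-fold, SE 0.55, paired limma adjusted p = 0.00475). Pdgfc, a platelet-derived growth factor gene, was -0.75, 1.18 and -4.02 against 1.26, 1.07 and 0.84, with replicate 2 inside the CD49fmed range. Tgfbr1, the type I receptor gene of TGF-beta, was -1.50, 0.86 and -2.08 against 1.10, 1.20 and 0.98 and did not overlap. The differences of Pdgfc and Tgfbr1 were -2.25 and -2.00 (paired limma adjusted p = 0.013 and 0.0361).

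Several of the named falls encode matrix or cell surface proteins. Hs3st3a1, a sulfotransferase that modifies heparan sulfate, was -2.03, 2.04 and -2.04 in the Thy-1+ arrays and 1.88, 2.07 and 1.96 in the CD49fmed arrays. It had the largest mean fall, -2.65 (6.26-fold, SE 0.55, paired limma adjusted p = 0.00178), and its pair 2 did not share it. Col9a1, a chain of collagen IX, was -0.23, 0.77 and -2.69 against 1.48, 1.48 and 1.39. Spock2, a proteoglycan gene of the testican family, was -1.72, 0.80 and -0.64 against 1.92, 1.00 and 1.92. Neither Col9a1 nor Spock2 overlapped between groups, with differences of -2.17 and -2.13. Fbln2, an elastic fibre and basement membrane protein gene, was -0.17, 1.88 and -1.12 against 2.62, 1.68 and 2.68, with replicate 2 inside the CD49fmed range and a difference of -2.13 (paired limma adjusted p = 0.0214 for Col9a1 and 0.0246 for Spock2 and Fbln2). Heph, a ferroxidase of cellular iron export, was -2.16, 1.39 and -2.07 against 1.21, 1.86 and 0.96, and overlapped.

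Other named falls had intracellular products. Fhod3, a formin that assembles actin filaments in muscle, was -1.77, 1.92 and -1.61 in the Thy-1+ arrays and 1.79, 2.28 and 2.05 in the CD49fmed arrays. Rps3, a protein of the small ribosomal subunit, was -4.18, 0.55 and -1.96 against 0.30, 0.80 and 0.73. In both genes replicate 2 overlapped the CD49fmed arrays. Bex1, an adaptor of neurotrophin receptor signalling, was -4.49, -0.95 and -3.18 against -1.64, -0.25 and -0.28, with a difference of -2.15 (paired limma adjusted p = 0.0229). Spryd7, Mex3d, Tmem88b and Serpinb11 complete the 15 largest falls, with differences of -2.53, -2.40, -2.29 and -2.29, and all 4 overlapped between groups. Of the 40 rows called lower, 11 had no overlap, against 6.86% of all rows that had every Thy-1+ array below, and of the 15 called higher 10 had none, against 2.0% of all rows with every Thy-1+ array above (8.86% of rows had no overlap in either direction). All 3 pair differences were above 0 in 15 of the 15 and below 0 in 28 of the 40, against 7.98% and 37.9% of all rows. The same contrast chose the called rows, so nothing is read from these shares.

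**Figure D3:**
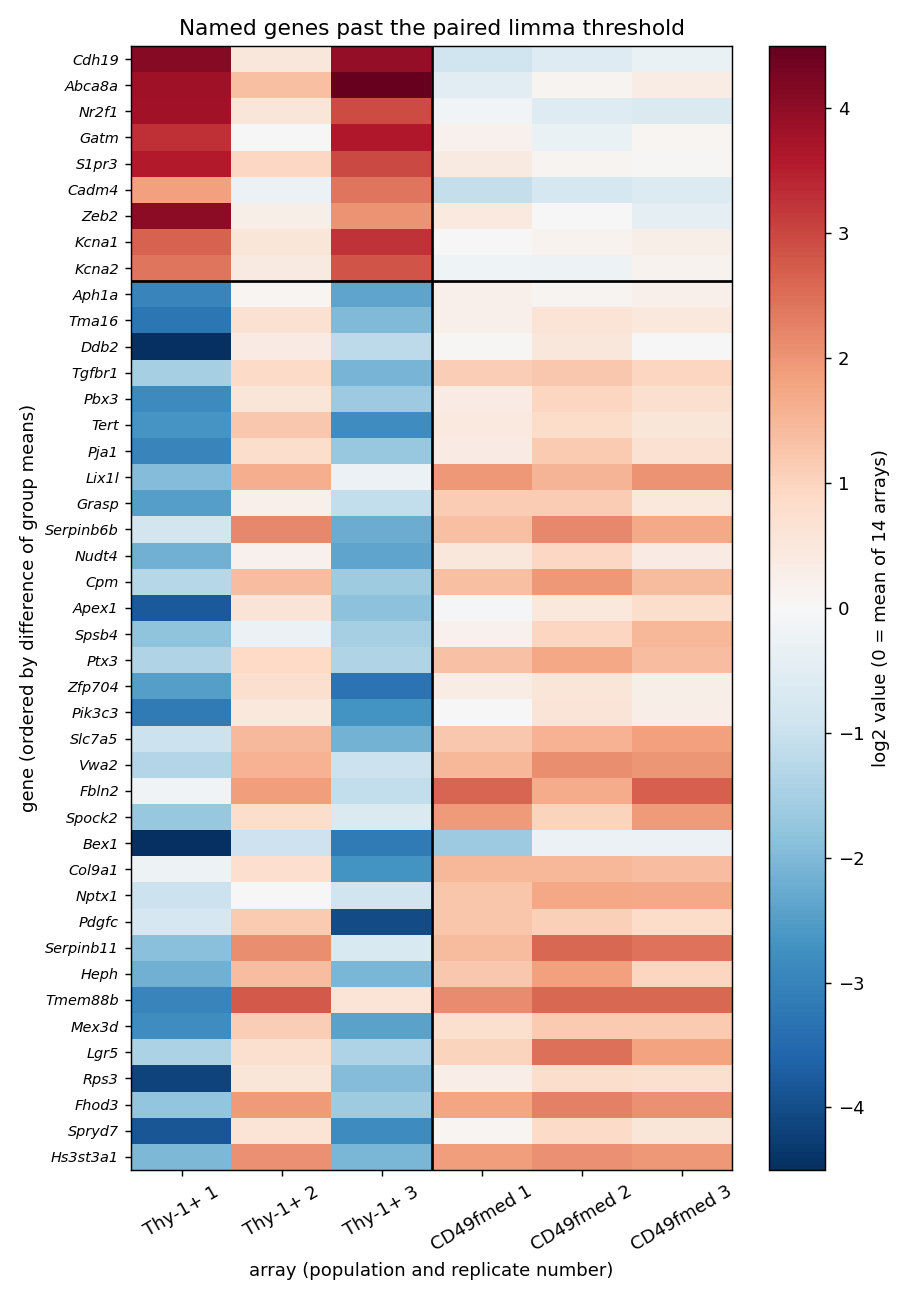
Log2 values (colour, 0 is the mean of 14 arrays) of the named genes past the paired limma threshold, 9 higher and 34 lower, in 3 Thy-1+ and 3 CD49fmed arrays. Thy-1+ replicate 2 is paler than replicates 1 and 3 in the higher genes and takes the colour of the CD49fmed arrays in most lower genes.

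Few rows moved far in all 3 pairs. In 4 rows, 0.0556% of those tested, every pair difference was above 1 log2, and in 9, 0.125%, every one was below -1. The first were Abca8a, Cdh19, Nr2f1 and Adgb, and the second Ccnb2, Tmem107, Nox4, Cdkn1c, Gpc3, Tspan8, Spsb4, Nptx1 and Lgr5. Gpc3, a heparan sulfate proteoglycan that binds growth factors, was -0.69, 0.38 and 0.47 in the Thy-1+ arrays and 1.34, 1.78 and 1.66 in the CD49fmed arrays. Cdkn1c, a cyclin-dependent kinase inhibitor gene, was 0.17, 0.08 and -0.92 against 1.77, 1.18 and 0.95. The groups of both genes did not overlap, but their differences of -1.54 and -1.53 did not pass the threshold (paired limma adjusted p = 0.147 and 0.152). Adgb, Tmem107, Nox4, Cdkn1c, Gpc3 and Spsb4 were chosen after their values were seen.

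Centring each array on its median added the same amount to every difference and took the median of all rows from -0.51 to -0.04, so the list medians below are read against -0.51 and their signs depend on the scaling. Without centring, list counts above 0 are read against 27.1% of all rows. With centred arrays they are read against 3432 of the 7190 rows, and after quantile normalization against 3348. Counts called higher and lower are read against 0.209% and 0.556%.

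Of 41 Schwann cell and myelin genes, 22 were measured, 4 were called higher (Cdh19, Abca8a, Cadm4 and Kcna1) and 0 lower, where 0.209% of all rows were called higher. Their median difference was 0.998, against -0.51 over all rows, with 18 above 0 against 27.1% of all rows. By pair the median was 1.49, 0.13 and 1.13, and with arrays centred on their medians it was 1.47. Ngfr, the low-affinity neurotrophin receptor gene, was 1.34, 0.69 and 1.78 in the Thy-1+ arrays and -0.39, -0.01 and 0.22 in the CD49fmed arrays, with no overlap. Ngfr lies outside the rule for named genes. Other list members were less even and overlapped. Nkain2 was 3.87, 0.57 and -0.04 against 0.14, 0.50 and -0.08, high mainly in replicate 1. Mal was 1.45, -0.13 and 1.35 against -0.05, -0.91 and -0.17. Mbp, a structural protein of myelin, was 2.55, 0.17 and 2.49 against 1.08, -0.07 and 0.38. Sox10, the transcription factor of the glial lineage, went the other way, with -2.79, 0.54 and 0.10 against 0.34, 0.56 and 0.43. Its pair differences were -3.13, -0.01 and -0.33, so Sox10 was also below every CD49fmed array in Thy-1+ replicate 3. Differences of Ngfr, Mbp and Sox10 were 1.33, 1.27 and -1.16 (paired limma adjusted p = 0.219, 0.229 and 0.259). The part of glial cells in these values was not tested, and in bulk RNA more cells of a type and more RNA per cell cannot be told apart.

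Upstream sequence was sought for the markers and for the Schwann cell list members called higher, which this same contrast chose. Of Abca8a, Cdh19, Cadm4, Kcna1, Nptx1 and Slpi, 3 matched by symbol in RefSeq's promoter table (GRCm38.p6). Cdh19, Kcna1 and Nptx1 did not and are not shown. Each run is the 250 bases before the start site, 5′ to 3′ on the gene's strand, with capitals at the SOX motifs ACAAAG and ACAATG and the E-box CAGGTG bound by ZEB factors, searched on both strands without overlap between motifs. They lie at chr11:110095938-110096187 on the minus strand for Abca8a, chr7:24481773-24482022 on the plus strand for Cadm4 and chr2:164356508-164356757 on the minus strand for Slpi.
Abca8a: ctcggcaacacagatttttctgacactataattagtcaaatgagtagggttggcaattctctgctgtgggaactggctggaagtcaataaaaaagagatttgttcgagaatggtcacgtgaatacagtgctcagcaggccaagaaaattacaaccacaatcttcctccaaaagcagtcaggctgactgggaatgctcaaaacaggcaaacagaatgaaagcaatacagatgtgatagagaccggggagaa
Cadm4: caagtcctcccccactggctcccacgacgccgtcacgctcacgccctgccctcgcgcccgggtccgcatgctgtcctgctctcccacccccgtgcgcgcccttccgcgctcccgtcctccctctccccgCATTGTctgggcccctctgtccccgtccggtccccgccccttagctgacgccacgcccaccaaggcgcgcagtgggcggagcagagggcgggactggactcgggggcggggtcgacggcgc
Slpi: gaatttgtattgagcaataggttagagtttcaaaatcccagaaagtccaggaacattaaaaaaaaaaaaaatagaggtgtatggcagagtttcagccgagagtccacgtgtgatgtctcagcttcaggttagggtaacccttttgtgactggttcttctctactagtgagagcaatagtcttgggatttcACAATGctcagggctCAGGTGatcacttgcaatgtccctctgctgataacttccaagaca
Of 32851 promoters in the table, 16.5% hold ACAAAG, 10.7% ACAATG and 17.2% CAGGTG within these 250 bases. Abca8a has no match, Cadm4 has ACAATG on the opposite strand from position -121, and Slpi has ACAATG from -60 and CAGGTG from -45. These matches are letters in a window and not tested sites.

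No gene of the smooth muscle contraction list passed the threshold. Fhod3, the actin-assembling formin called lower above, is not in that list. Of 27 measured smooth muscle contraction genes, 4 were above 0, with a median of -0.998, or -0.53 with 6 above 0 when arrays were centred. By pair the median was -0.92, -0.07 and -1.98, against -0.71, -0.10 and -0.60 over all rows, so it stood well below all rows in pair 3 only. Actg2, an actin gene of smooth muscle, was 0.88, 2.87 and -1.13 in the Thy-1+ arrays and 2.53, 2.78 and 2.82 in the CD49fmed arrays. Smtn, which encodes the actin-binding smoothelin, was -1.66, 0.53 and -0.62 against 1.33, 0.85 and 1.36, without overlap. The differences of -1.84 and -1.76 did not pass (paired limma adjusted p = 0.0719 and 0.0849). Oxtr, the oxytocin receptor gene, was 0.61, 1.63 and -0.74 against 1.56, 1.68 and 1.73, with a difference of -1.15. Basal epithelial genes had a median of -0.59 with 3 of 24 above 0, close to the -0.51 of all rows, and with centred arrays -0.12 with 10 above 0. Id4, an inhibitor of helix-loop-helix factors in basal cells, was 0.80, 2.96 and -0.54 against 2.28, 2.63 and 2.50, and passed the threshold on its probe set of largest variance (paired limma adjusted p = 0.013). Of 26 basement membrane and matrix receptor genes 0 were called and 6 were above 0 (median -0.81, or -0.34 with 11 above 0 when arrays were centred), with Col4a6, a collagen IV chain, at -0.96, 1.27 and -2.33 against 0.94, 1.22 and 0.91.

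In 3 lists of signalling genes the share above 0 is read against the 27.1% of all rows. Of 31 Wnt pathway genes 1 was called, Lgr5, which was lower, and 7 were above 0 (median -0.99). The Wnt receptor gene Fzd7 was -1.18, 1.39 and -1.24 in the Thy-1+ arrays and 1.36, 1.44 and 1.29 in the CD49fmed arrays, and the Wnt inhibitor gene Wif1 was 0.42, 2.47 and -1.04 against 2.13, 2.52 and 2.34. The 2 genes, a receptor and an antagonist, each differed by -1.71 without passing (paired limma adjusted p = 0.0982 and 0.0981). Of 23 TGF-beta and BMP genes 1 was called lower, Tgfbr1, and 3 were above 0 (median -0.87). Fst, which encodes the activin antagonist follistatin, was 0.47, 2.41 and -0.90 against 2.54, 2.39 and 2.31. Of 38 growth factor and receptor tyrosine kinase genes 1 was called lower, Pdgfc, and 8 were above 0 (median -0.73). Etv5, an ETS factor downstream of fibroblast growth factors, was -1.61, 1.14 and -1.10 against 1.34, 1.04 and 1.79, a difference of -1.92 (paired limma adjusted p = 0.0522), which passed on the probe set of largest variance (-2.50, adjusted p = 0.0113). With arrays centred on their medians the 3 lists stayed below the median of all rows, at -0.52, -0.40 and -0.26 against -0.04. Pair 2 had medians of only -0.07, -0.12 and -0.15.

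Of 36 ion channel and transport ATPase genes 3 were called higher, Abca8a, Kcna1 and Kcna2, where 0.209% of all rows were. Abca8a and Kcna1 also belong to the Schwann cell and myelin list, so they are counted in both. In the ion channel list 23 were above 0 (median 0.27), against 27.1% of all rows. Fxyd1, a regulator of the sodium pump, was 3.04, -0.23 and 1.89 in the Thy-1+ arrays and -0.07, -0.81 and -0.20 in the CD49fmed arrays (difference 1.93, paired limma adjusted p = 0.0522). Of 33 neuronal and axon guidance genes 3 were called lower, Nptx1, Bex1 and Spock2, where 0.556% of all rows were, and 0 higher. Yet the kinase gene Mast1 was 3.50, -0.28 and 1.19 against -0.43, -0.49 and -0.43. The median of that list, -0.51, equalled that of all rows. Of 14 genes of epithelial-mesenchymal transition Zeb2 alone was called, and 5 were above 0 (median -0.30), or 9 (median 0.17) when arrays were centred.

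**Figure D4:**
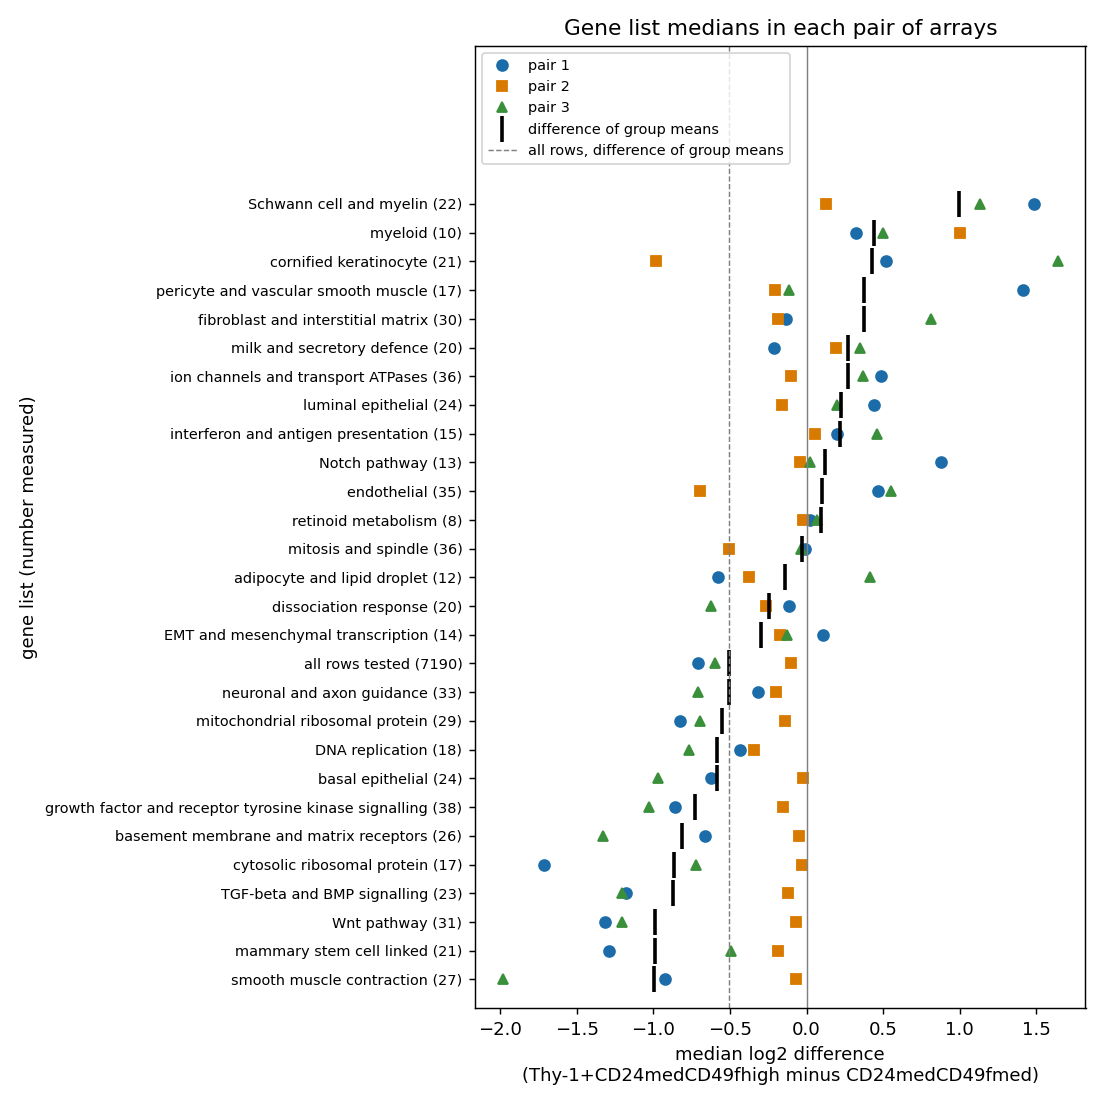
Median log2 difference of each gene list (number measured in brackets) in pairs 1, 2 and 3 and of the difference of group means (black bar), with a dashed line at the -0.51 of all 7190 rows. The Schwann cell and myelin list is highest by its mean difference, 0.998, and smooth muscle contraction lowest, -0.998, and for both pair 2 lies near 0.

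Genes of 21 mammary stem cell linked factors had a median of -0.99 against -0.51 over all rows, with 5 above 0 and 1, Lgr5, called lower. The share above 0 is near the 27.1% of all rows, and with centred arrays the median was -0.52 with 8 above 0. Tspan8, a tetraspanin gene, was -2.15, -0.56 and -2.22 in the Thy-1+ arrays and -0.25, 0.64 and 0.16 in the CD49fmed arrays, without overlap (difference -1.83, paired limma adjusted p = 0.0724), and passed on its probe set of largest variance (-3.06, adjusted p = 0.000396). Procr, the protein C receptor gene, was 2.33, 0.48 and 0.05 against 1.38, 0.81 and 0.17, a difference of 0.16 that turned to -0.23 without replicate 1. Aldh1a1 differed by 0.50 and Rarres2 by 1.32 (paired limma adjusted p = 0.576 and 0.221), and both overlapped. Of 24 measured genes that the study listed for Thy-1+ cells in FVB mice alone, 1 was called higher (Kcna1) and 1 lower (Lgr5). The study made that list by comparing both strains, so genes it found enriched in C57BL6 cells as well were set apart. The list is therefore not independent of these arrays, and few calls could be awaited from it. Of its genes 19 were above 0, against 27.1% of all rows, with pair medians of 0.60, -0.72 and 1.08. Of all rows 0.209% were called higher and 0.556% lower. Of 14 such genes listed for CD24lowCD49fmed cells, Gatm was called, higher in Thy-1+ cells, and 7 were above 0.

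Markers of other cells varied with replicate number in both groups. The median of 35 endothelial genes was 2.79, 0.05 and -0.12 in Thy-1+ replicates 1 to 3 and 2.20, 0.83 and -0.59 in the CD49fmed replicates, high in both arrays numbered 1. Aqp7, a glycerol channel of capillary endothelium and adipocytes, was 2.92, 0.12 and -0.98 against 5.54, 2.65 and -1.23. The median of 21 cornified keratinocyte genes was -0.79, -0.30 and 2.67 against -0.93, 0.54 and 1.14, high in both arrays numbered 3. No endothelial or cornified gene was called, and the medians of their differences were 0.10 and 0.43. Pericyte genes were high in Thy-1+ replicate 1 alone, with a median over 17 genes of 2.04 against 0.57 in CD49fmed replicate 1, and 0 were called. Among 30 fibroblast and interstitial matrix genes Fbln2 was called lower, and 18 were above 0 (median 0.38, by pair -0.13, -0.19 and 0.81). The list median was 0.72 in Thy-1+ replicate 1 and 0.74 in CD49fmed replicate 1, where the median of all rows was -0.74 and -0.02. Below 0 in all 3 pairs were 7 of its genes, against 37.9% of all rows. Col1a1, a chain of type I collagen, was 2.71, -0.45 and 2.89 in the Thy-1+ arrays and 0.40, -0.44 and -0.29 in the CD49fmed arrays, high in the arrays that were high for Thy1 (difference 1.83, paired limma adjusted p = 0.0724). Of 12 adipocyte genes 0 were called and 3 were above 0, or 9 when arrays were centred (median -0.14 and 0.33). Of 24 luminal epithelial genes 0 were called and 15 were above 0 (median 0.22), with 20 above 0 when arrays were centred (0.69) and 22 after quantile normalization (0.87). Of all 7190 rows 3432 and 3348 were above 0 under these 2 scalings. The part of these other cells in the results was not tested.

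**Figure D5:**
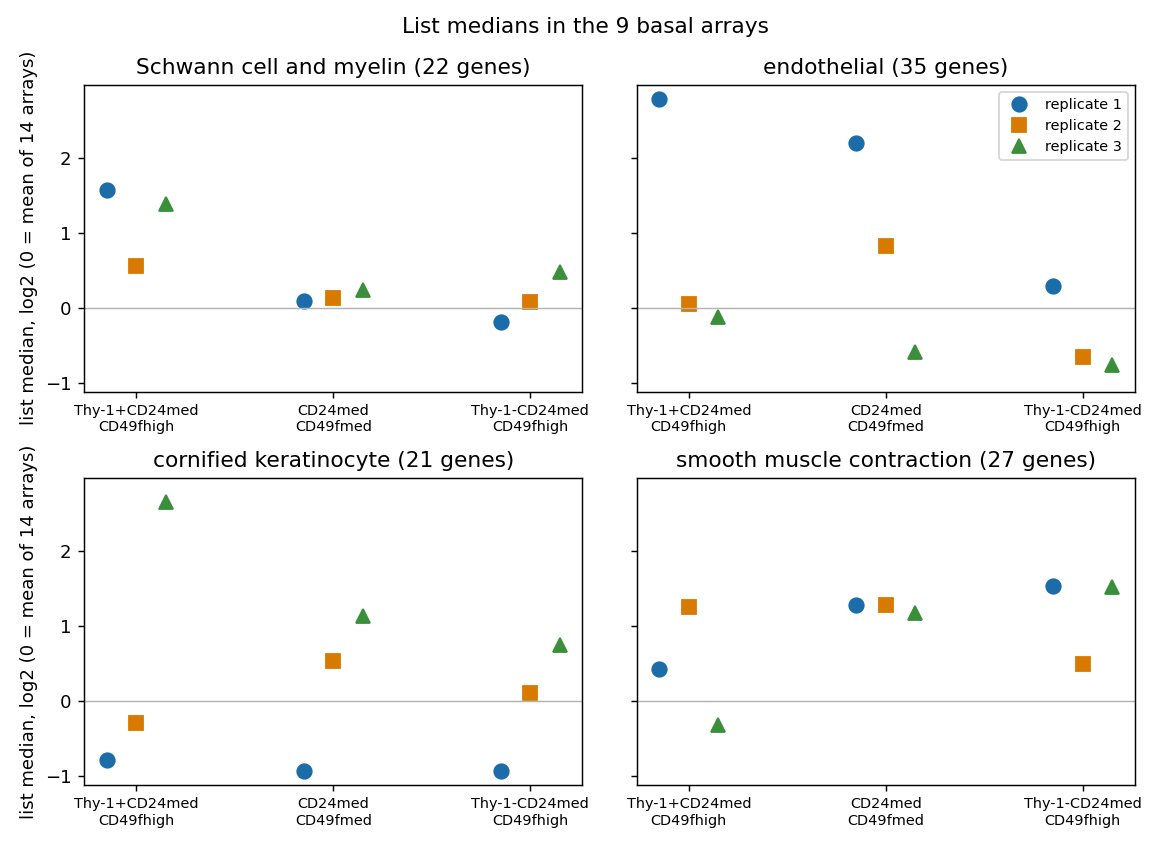
Median log2 value (0 is the mean of 14 arrays) of 4 gene lists in the 9 basal arrays, with symbols by replicate number. Schwann cell and myelin genes are highest in Thy-1+ replicates 1 and 3 (1.58 and 1.38), while endothelial genes are high in the arrays numbered 1 of both compared groups and cornified genes in those numbered 3.

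Medians of ribosomal protein genes were the lowest of all arrays in Thy-1+ replicate 1. In Thy-1+ replicate 3 they were not below the median of all rows. Among the Thy-1-CD24medCD49fhigh arrays, replicate 2 was at -0.73 for the cytosolic list. The median of 17 cytosolic ribosomal protein genes was -1.68, 0.09 and -0.35 in Thy-1+ replicates 1 to 3 and 0.04, 0.27 and 0.34 in the CD49fmed replicates. All 17 had a mean difference below 0, with Rps3 called lower. The 29 mitochondrial ribosomal protein genes had medians of -1.49, -0.06 and -0.41 against -0.50, 0.11 and 0.13, and 0 were called. The median over all rows was -0.74, 0.08 and -0.51 in the Thy-1+ arrays and -0.02, 0.18 and 0.07 in the CD49fmed arrays, and with centred arrays the cytosolic list was at -0.40 with 3 above 0 and the mitochondrial list at -0.08 with 12, against -0.04 over all rows. Both lists were added after the values were seen.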

How the data were processed

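The authors deposited 1 table of log2 values, normalized by robust multichip average in MIDAS (the submitters' notes name RMA and GCRMA), filtered in Cluster 3.0 for signal and a 4-fold difference, and mean-centred per probe set. No source used here gives their versions. The deposited log2 table held 9645 probe sets, each with a range of at least 2.0. Signal over background was not used here. The number of arrays and the spread among the Thy-1+ arrays limit the precision. The 4-fold filter ran over all 14 arrays, so unchanging genes are missing from shares and medians.

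Probe sets with 1 symbol (8499) were averaged per gene (6044 genes, 1765 of them with several probe sets). The 199 with several symbols and 947 with none stayed single, giving 7190 rows. Groups were compared with limma 3.58.1 in R 4.3.3, two-sided, with the replicate number as a block and without it (replicate 3v was taken as 3), at a Benjamini-Hochberg adjusted p under 0.05 over all rows. Array deviations of the same number correlated at 0.388, 0.391 and 0.386 between the groups, so the numbers were taken to pair the arrays. Rank products permuted values within each array 100 times in Python 3.11.15 (numpy 2.4.6, pandas 2.3.3), and figures used matplotlib 3.10.9. The fits were tested on simulated rows with 1 spread for all genes and arrays and with true pairs. The real pairs differ in spread, so that test does not show how the fits behave on these arrays. With 200 rows changed by 2 log2, 107 were recovered with the replicate block (7 false calls) and 0 without it. For a change of 3 log2 these were 198 (10 false calls) and 176 (0 false calls).

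The text names Thy1, the 4 markers, the called genes with the 15 largest rises and 15 largest falls, and up to 4 most changed plus all called members of each gene list. Genes outside this rule are defining markers or are marked as chosen after their values were seen, apart from Ngfr, Oxtr and Dmbt1, which also lie outside it. The members and lists were chosen with earlier results of these data known. Lists are described by counts and medians, with no set test.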

Additional observations from a re-analysis of the deposited data

How the results depend on the processing

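The counts of 15 higher and 40 lower depended on the pairing, the scaling and single arrays. Array deviations paired by number, and the fit with no replicate block called 0 and 0. Without the block, array weights gave 4 and 0, all 14 arrays in 1 fit 0 and 0, and rank products 79 and 69. With the replicate block, limma gave 0 and 0 for 9 basal arrays in 1 fit, 0 and 0 with unmoderated variance (185 at an unadjusted p under 0.05), 16 and 67 with each probe set on its own, 0 and 0 with arrays centred on their medians (837 at an unadjusted p under 0.05), 6 and 1 after quantile normalization, 14 and 34 with robust moderation, and 15 and 40 with a difference of 1 or more. Alternatives chosen after seeing the data, unpaired fits with centred arrays, with quantile normalization or with Thy-1+ replicate 2 alone, gave 0 and 0 (250, 434 and 77 at an unadjusted p under 0.05). The last has an arm of 1 array that is assumed to vary like the CD49fmed arrays, and its 0 says nothing about stability. Rank products called 1 row in both directions.

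When 1 replicate or array was left out, the count of higher rows ran from 0 to 82 and of lower rows from 0 to 774. The upper ends came without Thy-1+ replicate 2 in the unpaired fit. Paired, the calls were 2 and 0 without replicate 1, 3 and 1 without replicate 2, and 0 and 0 without replicate 3. The unpaired count was 0 without any of the other 5 arrays. The cause was not tested. Of 112 named genes, no called one changed sign under 7 alternatives, of which the fit with no block keeps each difference by design. Uncalled Procr, Heyl, Ms4a1, Ighm and Stfa3 did in some. All 25 called ones lost their call with no block and also after median centring, and 20 of them after quantile normalization. Tspan8, Id4, Etv5 and Bdnf passed on the probe set of largest variance. Of 30 list medians, 14 moved by more than the spread between pairs with centred arrays and 10 with quantile normalization. The smallest difference called, 1.95, limits what 3 pairs could show.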

Other observations

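Genes of immune cells and of cell division added to the picture of the Thy-1+ arrays without any call. Of 10 myeloid genes 9 had a mean difference above 0 (median 0.44), and pair 2 had the largest median, 1.00. Lyz2, a lysozyme gene of macrophages and neutrophils, was 0.12, 0.93 and 0.10 in the Thy-1+ arrays and -0.26, -0.34 and -0.49 in the CD49fmed arrays, without overlap. Fgr, a Src family kinase gene of myeloid cells, was 3.79, -0.47 and 0.63 against -0.38, -0.68 and -0.17, so that its difference of 1.73 came from Thy-1+ replicate 1 (paired limma adjusted p = 0.0939). Of 15 interferon and antigen presentation genes 13 were above 0 (median 0.22). Ifit3, an interferon-induced antiviral gene, was 1.49, 0.02 and 1.76 against 0.59, 0.12 and -0.48.

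Of 36 mitosis and spindle genes 18 were above 0, or 26 with centred arrays, while pair 2 had the lowest pair median, -0.51. Ccnb2, a cyclin of mitosis, was -1.48, -0.23 and -0.38 in the Thy-1+ arrays and -0.45, 1.02 and 1.23 in the CD49fmed arrays (difference -1.30, paired limma adjusted p = 0.221). Of 18 DNA replication genes 2 were above 0 (median -0.59). Rrm2, a subunit of ribonucleotide reductase, was -2.48, 0.28 and 0.13 against 0.03, 0.84 and 0.97. Dmbt1, a mucosal glycoprotein gene, was -1.94, -1.62 and -0.32 against -2.46, -2.62 and -2.29, above every CD49fmed array while Slpi of the same milk and secretory defence list was below every one. That list had 13 of 20 genes above 0 (median 0.27), of 13 Notch pathway genes 7 were above 0 (0.12), of 8 retinoid genes 5 (0.10) and of 20 dissociation response genes 4 (-0.24), each with 0 called. With centred arrays these 4 medians were 0.74, 0.59, 0.56 and 0.23, so that of the dissociation response genes turned, with 14 above 0. Centring also put 3432 of all 7190 rows above 0.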
